A study of Mus musculus with 2 samples.

Results

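Among the EpA ependymal cells of the injured mouse spinal cord, 412 of 1004 cells (41.0%, 38.0 to 44.2) still held the transcripts of motile cilia 3 days after injury and had few or none of those of dividing cells. They are called injured cilium-keeping cells here. A cell was counted when it had at least 2000 unique molecular identifiers (UMIs, each standing for 1 captured RNA molecule) and fewer than 5 UMIs summed over the dividing-cell genes Mki67, Top2a, Cdk1, Birc5 and Prc1. Its summed Ccdc153, Tmem212, Rsph1 and Dynlrb2 also had to reach 2500 per 1000000 of its UMIs. The same thresholds kept 533 of 555 EpA cells of the intact cord (96.0%, 94.1 to 97.5), called uninjured cilium-keeping cells. A further group, 400 injured EpA cells, passed the UMI and dividing-cell thresholds but lay below the cilium threshold, and they are called the other injured cells. The whole set held 1559 EpA cells.

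The injured library came from cord taken on day 3 after the dorsal funiculus had been incised and the uninjured library from intact cord. Both came from C57BL/6J mice at least 12 weeks old of the genotype Troy-CreERT2+/- x Rosa26-tdTomato, and both were sorted for tdTomato. The tissue was a 5 mm stretch of cord, centred on the lesion or level with it in intact mice. Troy is another name of Tnfrsf19, so the cells are those in which that gene's Cre was once active, or their descendants. There was 1 library per condition, and how many animals each pooled is not given in the sources used here. No difference below therefore has a replicate check, no test between groups was made, and the 95% intervals in brackets cover counting error only.

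Ependymal cells form the lining of the cord's central canal, and their motile cilia move the cerebrospinal fluid. The transcription factor Foxj1 and the RFX factors switch on the genes that build the cilium's axoneme, its dyneins, radial spokes and transport trains. In glia of an injured cord, signals through Stat3, interferon receptors and other pathways are known to raise intermediate filaments, complement components and class I antigen presentation.

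The injured cilium-keeping cells and the uninjured ones were sequenced to the same depth per cell. Their median was 11464.5 UMIs in injured cilium-keeping cells and 11463 UMIs in uninjured ones, with 3589 and 3611 genes seen per cell. Summed over cells, the groups held 5957513 UMIs (injured) and 7533037 UMIs (uninjured). The other injured cells were deeper, with a median of 22599 UMIs and 9751155 UMIs in sum. Levels are given below as counts per 1000000 UMIs of the group's sum (CPM). The median share of mitochondrially encoded UMIs was 8.76% in injured cilium-keeping cells, 11.3% in uninjured ones and 5.96% in the other injured cells. None of the 5 dividing-cell genes was seen in 366 of the 412 injured cells and in 493 of the 533 uninjured cells. No cell barcode was shared between the 412 and the 533 cells, against 18 shared over all barcodes of both libraries.

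The summed level of the 4 cilium genes, which chose the cells, had a median of 4367 CPM per cell in injured cilium-keeping cells, 5074 CPM in uninjured ones and 254 CPM in the other injured cells. Across the 812 injured cells that passed the UMI and dividing-cell thresholds, 261 lay under 500 CPM, 25 between 1000 and 1500 CPM, and 67 between 4000 and 4500 CPM, the fullest bin above 500 CPM. The uninjured cells formed 1 mound with its fullest bin, 82 cells, from 5000 to 5500 CPM, and 1 cell of 545 under 500 CPM. The threshold fell on a slope rather than in a gap. The injured cells just inside it stood at 2505, 2533 and 2542 CPM and those just outside at 2466, 2433 and 2433 CPM. Within 500 CPM of it lay 43 injured cells inside and 30 outside, so the label marks a range of cilium level. Whether the cells form a separate type was not tested.

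**Figure D1:**
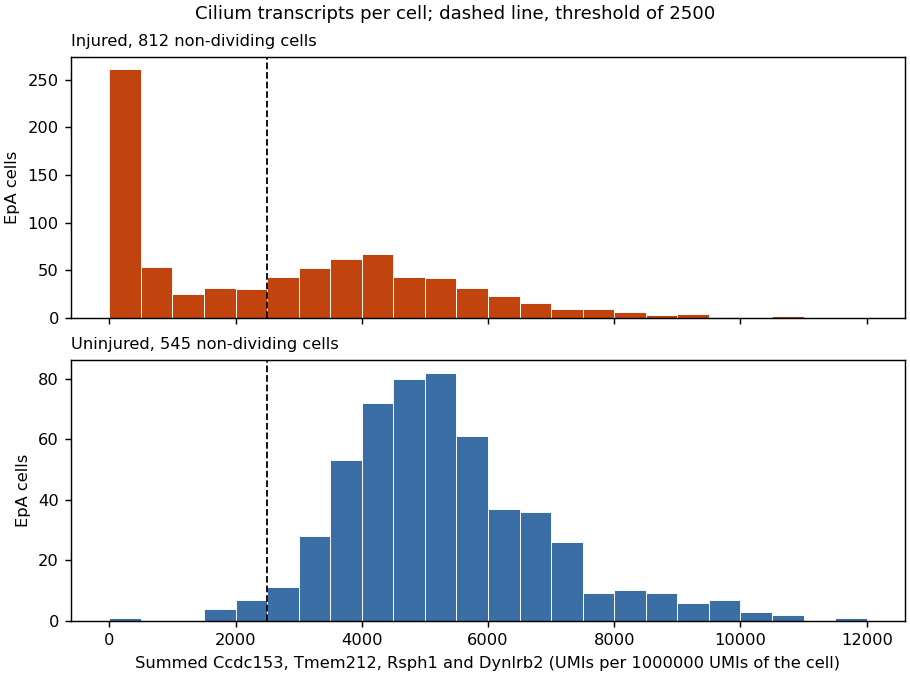
Number of EpA cells (vertical axis) by the summed level of Ccdc153, Tmem212, Rsph1 and Dynlrb2 in each cell (horizontal axis, per 1000000 UMIs, bins of 500), for 812 injured (upper) and 545 uninjured cells (lower) with fewer than 5 dividing-cell UMIs. Injured cells form 261 near 0 and a broad mound that peaks at 67 cells in the bin from 4000, while 1 uninjured cell lies under 500.

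The cilium list stood near the uninjured level in injured cilium-keeping cells. Of 85 measured genes of the motile cilium list, none was 2-fold higher or lower than in uninjured cilium-keeping cells, and the median log2 ratio was −0.03, with extremes of −0.56 and 0.61. The list holds the 4 genes that chose the cells. The other 81 genes summed to 19233 CPM in injured cilium-keeping cells, 19030.0 CPM in uninjured ones and 4738 CPM in the other injured cells, and their median log2 ratio to uninjured cilium-keeping cells was −0.03 (extremes −0.35 and 0.61). This closeness is partly set by the choice of cells, since both groups had to pass 1 cilium threshold. It is also not particular to cilium genes. Of all genes tested, 0.762% were 2-fold higher and 0.0879% lower, and the median log2 ratio over all measured genes was 0.02. The genes that chose the cells were not equally close. Ccdc153 (coiled-coil domain containing 153), found in ciliated cells, was at 1168 CPM in injured cilium-keeping cells, 1727 CPM in uninjured ones and 38.8 CPM in the other injured cells. Dynlrb2, a dynein light chain, was at 886 CPM in injured cilium-keeping cells and 887 CPM in uninjured ones. Rsph1, a radial spoke protein, was at 1149 and 1185 CPM in the same order, and Tmem212, a membrane protein gene, at 1392 and 1550 CPM.

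The promoters of the genes that chose the cells are shown because RFX factors bind cilium promoters through X-boxes, palindromes of a half-site. Each window runs from 250 bases before to 50 bases after the gene's start in RefSeq, build GRCm38.p6, written 5′ to 3′ on the gene's strand. Capitals mark each match to the half-site GTTGCC on either strand. Ccdc153 is at chr9:44240427-44240726 on the plus strand and Dynlrb2 at chr8:116504765-116505064 on the plus strand.
Ccdc153: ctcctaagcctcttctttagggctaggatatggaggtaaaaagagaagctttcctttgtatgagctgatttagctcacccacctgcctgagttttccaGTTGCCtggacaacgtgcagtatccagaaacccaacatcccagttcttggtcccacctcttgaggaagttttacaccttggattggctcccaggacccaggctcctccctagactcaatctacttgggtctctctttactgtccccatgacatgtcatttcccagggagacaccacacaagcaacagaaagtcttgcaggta
Dynlrb2: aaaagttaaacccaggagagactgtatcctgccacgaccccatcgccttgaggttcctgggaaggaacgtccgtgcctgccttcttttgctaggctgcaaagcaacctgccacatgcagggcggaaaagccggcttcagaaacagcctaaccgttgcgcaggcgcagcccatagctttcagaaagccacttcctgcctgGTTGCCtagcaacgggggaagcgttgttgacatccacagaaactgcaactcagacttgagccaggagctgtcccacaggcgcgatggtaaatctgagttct
Each window held 1 match, and 12.5% of the 32851 RefSeq promoter windows held at least 1. The window of Tmem212 held none, which says only that these letters are not in those 300 bases. The forkhead motif GTAAACA, searched on both strands and held by 3.65% of all windows, was in none of the 3 windows, and no half-site overlapped it. The promoter of Rsph1 was not used here.

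The factors that drive these genes were within 2-fold of the uninjured level, which the choice of cells by cilium genes may partly set. Foxj1 was at 534 CPM (516 to 553) in injured cilium-keeping cells, 425 CPM (410 to 439) in uninjured ones and 202 CPM in the other injured cells. Rfx3 was at 94.7 CPM in injured cilium-keeping cells and 94.6 CPM in uninjured ones, and Rfx2 at 51.2 and 44.6 CPM. Myb, which acts early in the making of multiciliated cells, was at 67.3 CPM in injured cilium-keeping cells, 68.4 CPM in uninjured ones and 11.4 CPM in the other injured cells. None of the 10 measured cilium transcription factors and none of the 23 measured intraflagellar transport genes differed 2-fold between injured and uninjured cilium-keeping cells (median log2 ratios −0.01 and 0.08). Few genes of any kind did, with 0.762% of all genes tested higher and 0.0879% lower. Tppp3, a tubulin-binding protein of multiciliated cells, was at 683 CPM in injured cilium-keeping cells and 479 CPM in uninjured ones.

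Rarres2 and Pcp4 were lower by less than 2-fold. Rarres2, which encodes the secreted protein chemerin, was at 1345 CPM in injured cilium-keeping cells and 1761 CPM in uninjured ones, a ratio of 0.763 (0.743 to 0.785). Pcp4, a regulator of calmodulin, was at 505 CPM in injured and 672 CPM in uninjured cilium-keeping cells. Of 33 measured genes of ependymal identity, 29 reached 50 CPM in either group. Vim, the intermediate filament vimentin, was the 1 gene that differed 2-fold, beside 0.762% of all genes tested that were higher. The list's median log2 ratio was 0.04.

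Over all genes, injured cilium-keeping cells differed from uninjured ones in few places. Of 3412 genes with at least 50 CPM in either group, 26 (0.762%) stood 2-fold or more above the uninjured level and 3 (0.0879%) stood 2-fold or more below it. In all, 3297 genes (96.6%) lay within 1.5-fold, around a median log2 ratio of 0.04. For 20 higher genes and 2 lower ones, the whole interval of the ratio was past 2-fold. With every cell thinned to 2000 UMIs, 26 genes were higher and 20 lower. The higher genes reached further, since 12 of them were at least 4-fold higher and none of the lower genes was 4-fold lower. The other injured cells, set against the same uninjured cells, had 397 of 3691 genes 2-fold higher (10.8%) and 610 lower (16.5%), which turned to 1374 higher and 284 lower as UMIs per cell without scaling. These comparisons share the uninjured cells, so their counts are given side by side and not as independent results.

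**Figure D2:**
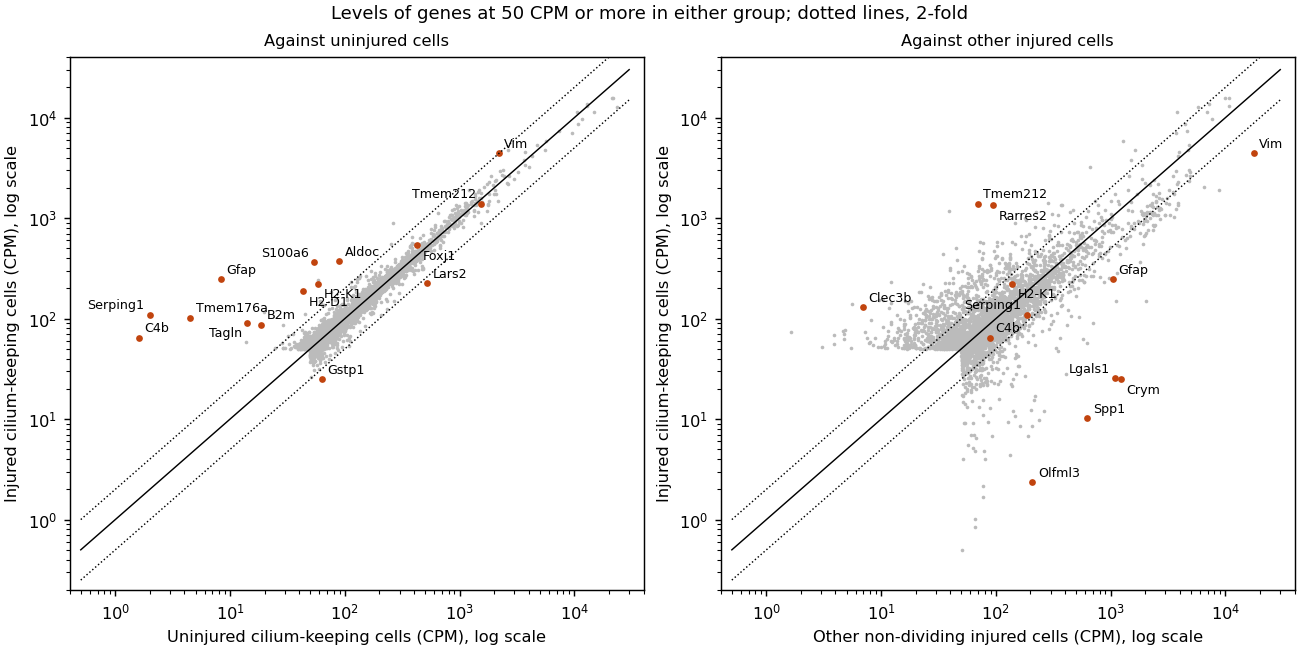
Level of each gene in injured cilium-keeping cells (vertical axis, CPM, log scale) against uninjured cilium-keeping cells (left) or the other injured cells (right, both CPM, log scale), for genes at 50 CPM or more in either group. Solid lines mark equal levels, dotted lines 2-fold, and orange points carry a gene name. On the left 3297 of 3412 genes lie within 1.5-fold and Serping1, C4b and Gfap stand far above the line, while the right panel spreads widely on both sides.

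Among genes at 50 CPM or more in either group, the largest ratios were those of complement genes. Serping1, which encodes the C1 inhibitor that holds back the first step of the classical complement pathway, was at 109 CPM (101 to 118) in injured cilium-keeping cells. It was at 1.99 CPM (1.11 to 3.28) in uninjured ones and 185 CPM (176 to 193) in the other injured cells. That is a 54.8-fold higher level (33.0 to 98.5) than in uninjured cilium-keeping cells. On the log2 scale the ratio was 5.73, and 4.84 at a cilium threshold of 5000 per 1000000. C4b, the complement component cleaved in that step, was at 64.8 CPM (58.5 to 71.6) in injured cilium-keeping cells, 88.1 CPM in the other injured cells and 1.59 CPM (0.823 to 2.78) in uninjured ones, 40.7-fold higher (23.02 to 79.4). Both genes were thus near 0 in uninjured cilium-keeping cells and of the same order in the 2 injured groups. C4b has a near-identical neighbour, C4a, and the counting may have split or merged their reads, so its identity is uncertain. In the GENCODE M21 annotation of GRCm38, the protein-coding gene Serping1 spans 84765387 to 84775444 of chromosome 2 and C4b spans 34728380 to 34743882 of chromosome 17.

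A wider complement list, drawn up after these genes had been seen, showed that few of its other members were measurable. Of 20 genes of that list in the tables, 6 were measured. C3, the central component, was at 33.9 CPM (29.4 to 38.9) in injured cilium-keeping cells, 37.4 CPM in the other injured cells and 0.929 CPM (0.374 to 1.92) in uninjured ones, below the 50 CPM floor. A single cell held 15.3% of those C3 UMIs. Cd55 and Cd59a, membrane inhibitors of complement, did not differ 2-fold, at 208 and 61.6 CPM in injured cilium-keeping cells against 160 and 70.0 CPM in uninjured ones. Clu, a secreted chaperone that also binds complement, was at 3821 CPM in injured cilium-keeping cells, 3611 CPM in uninjured ones and 1514 CPM in the other injured cells. The microglial subunits C1qa, C1qb and C1qc were each under 2 CPM in all 3 groups.

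Some genes of reactive glia were higher, and those called stood below the other injured cells. Gfap, the intermediate filament of astrocytes, was at 247 CPM (234 to 260) in injured cilium-keeping cells, 1038 CPM (1018 to 1059) in the other injured cells and 8.36 CPM (6.43 to 10.7) in uninjured ones. It was 29.5-fold higher (22.9 to 38.6) than in uninjured cilium-keeping cells and 4.21-fold lower (3.98 to 4.44) than in the other injured cells. The log2 ratio to uninjured cilium-keeping cells was 4.87, and 3.73 at a cilium threshold of 5000 per 1000000. S100a6, a calcium-binding protein, was at 363 CPM in injured cilium-keeping cells, 1806 CPM in the other injured cells and 53.9 CPM in uninjured ones. Vim was at 4426 CPM in injured cilium-keeping cells, 17709 CPM in the other injured cells and 2201 CPM in uninjured ones, 2.01-fold higher (1.97 to 2.05) than in uninjured cilium-keeping cells. Of 21 measured reactive glia genes, 9 reached 50 CPM and 4 were 2-fold higher (Gfap, S100a6, Vim and the small heat shock protein Hspb1) and none was lower, beside 0.762% of all genes tested that were higher. The list's median log2 ratio was 1.39, against 0.02 over the 10181 genes measured in all. It lies above the 2-fold line because several members under the 50 CPM floor had ratios above 2. Crym was among them, at 24.8 CPM in injured cilium-keeping cells and 0.133 CPM in uninjured ones. The part of free RNA in such low levels was not tested. Serpina3n, a secreted protease inhibitor, is another example. It was at 29.7 CPM (25.5 to 34.4) in injured cilium-keeping cells, 65.3 CPM in the other injured cells and had no UMI in uninjured ones, at least 74.6-fold higher when 3 counts are taken as the limit for the whole uninjured group. The uninjured table lists only genes seen in 3 or more cells, so a level near 0 there may miss single UMIs.

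The promoter of Gfap is shown because glial Gfap is a known target of Stat3. Whether Stat3 had a part in the Gfap level was not tested. Stat3 transcripts were 2.09-fold higher (1.78 to 2.46) in injured cilium-keeping cells than in uninjured ones. Stat3 was at 66.8 CPM in injured cilium-keeping cells, 121 CPM in the other injured cells and 32.0 CPM in uninjured ones. The window, at chr11:102897151-102897450 on the minus strand, carries in capitals its match to the STAT motif TTCNNNGAA, which reads the same on both strands. This motif was chosen after the levels had been seen.
Gfap: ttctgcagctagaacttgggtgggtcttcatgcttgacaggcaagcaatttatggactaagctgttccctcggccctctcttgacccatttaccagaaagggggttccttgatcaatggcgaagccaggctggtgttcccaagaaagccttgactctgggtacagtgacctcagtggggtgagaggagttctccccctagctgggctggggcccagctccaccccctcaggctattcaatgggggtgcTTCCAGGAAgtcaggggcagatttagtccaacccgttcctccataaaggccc
The window held 1 match, and 8.30% of all promoter windows held at least 1. No other motif searched overlapped it. A match is a description of the letters and not evidence of binding. Of 13 measured genes of cytokine and Stat3 signalling, 7 reached 50 CPM in either group and Stat3 was the 1 gene called. Of all genes tested 0.762% were called higher, and the list's median log2 ratio was 0.05. Socs3, the feedback inhibitor that Stat3 induces, was at 94.0 CPM in injured cilium-keeping cells, 317 CPM in the other injured cells and 127 CPM in uninjured ones. Osmr, the oncostatin M receptor, was at 10.7 CPM (8.27 to 13.7) in injured cilium-keeping cells, 38.9 CPM in the other injured cells and 0.664 CPM (0.216 to 1.55) in uninjured ones.

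In CPM, the class I heavy chains were as high in injured cilium-keeping cells as in the other injured cells, or higher. H2-D1, a class I heavy chain, was at 188 CPM (177 to 199) in injured cilium-keeping cells, 180 CPM (172 to 189) in the other injured cells and 43.3 CPM (38.7 to 48.2) in uninjured ones. H2-K1, a second heavy chain, was at 221 CPM in injured cilium-keeping cells, 138 CPM in the other injured cells and 58.3 CPM in uninjured ones. Its ratio to uninjured cilium-keeping cells was 3.80 (3.41 to 4.24) and to the other injured cells 1.61. Without scaling, the 412 injured cilium-keeping cells held 1118 UMIs of H2-D1 and 1319 of H2-K1. The 400 other injured cells, which were deeper, held 1760 and 1344, so both genes were higher per cell there. The heavy chains are near-identical in sequence, so the split of reads between them is uncertain. B2m, the light chain that every class I molecule needs, was at 86.8 CPM (79.5 to 94.6) in injured cilium-keeping cells, 195 CPM in the other injured cells and 18.6 CPM (15.6 to 21.9) in uninjured ones. Of 12 measured class I genes, 7 reached 50 CPM in either group. These 3 were the ones called higher and none was called lower, beside 0.762% and 0.0879% of all genes tested. The list's median log2 ratio was 0.85 over uninjured cilium-keeping cells and 0.02 over the other injured cells.

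The promoter of B2m, at chr2:122147437-122147736 on the plus strand, is shown for its interferon-response letters. Capitals mark the match to a pair of GAAA boxes 2 bases apart, searched on both strands, a motif chosen after the levels had been seen.
B2m: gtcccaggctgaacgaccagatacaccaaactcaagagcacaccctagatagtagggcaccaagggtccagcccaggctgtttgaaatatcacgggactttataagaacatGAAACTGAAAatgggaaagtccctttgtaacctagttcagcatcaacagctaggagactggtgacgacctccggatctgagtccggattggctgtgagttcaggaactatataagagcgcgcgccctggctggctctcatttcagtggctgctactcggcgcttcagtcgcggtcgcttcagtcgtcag
The window held 1 match, and 3.44% of all windows held at least 1. No window was available for Serping1 or C4b, and those of H2-K1 and H2-D1 were not searched. No other motif searched overlapped it. Interferon response genes were mostly of low level. Of 24 measured, 2 reached 50 CPM in either group and none was called, beside 0.762% of all genes tested that were higher. The median log2 ratio was 0.83 and 22 ratios were above 0. Ifitm3, a membrane protein that restricts virus entry, held most of the list's UMIs, at 4776 CPM in injured cilium-keeping cells, 4708 CPM in the other injured cells and 2649 CPM in uninjured ones. Among the lower ones, Oasl2 was at 19.97 CPM in injured cilium-keeping cells, 13.7 CPM in the other injured cells and 3.58 CPM in uninjured ones. Isg15, a ubiquitin-like modifier, was at 10.2 CPM, 10.97 CPM and 0.531 CPM in the same groups, and 1 cell held 24.6% of its UMIs in injured cilium-keeping cells. Over the other injured cells the list's median log2 ratio was −0.34. There 2 of the 5 genes tested, Ifitm2 and Bst2, were 2-fold lower, beside 7.61% of all genes tested.

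The remaining genes called higher were of several kinds. Tmem176a and Tmem176b, neighbouring membrane protein genes on chromosome 6, were at 102 and 243 CPM in injured cilium-keeping cells, 256 and 466 CPM in the other injured cells and 4.51 and 57.9 CPM in uninjured ones. Their annotated spans lie on opposite strands and overlap only where both genes start, away from the ends that 3′ libraries count. Aldoc, the glycolytic aldolase of astrocytes, was at 372 CPM (357 to 388) in injured cilium-keeping cells, 432 CPM in the other injured cells and 88.9 CPM (82.3 to 95.9) in uninjured ones. No other of the 18 measured glycolysis genes, 12 of which reached 50 CPM, was called, and the list's median log2 ratio was −0.19. Among genes of the actin cytoskeleton, Tagln (transgelin) was at 90.8 CPM in injured cilium-keeping cells, 700 CPM in the other injured cells and 14.1 CPM in uninjured ones. Capg, an actin-capping protein, was at 58.1 CPM, 191 CPM and 13.8 CPM in the same groups. With Msn, they were the 3 genes called of 45 measured for cytoskeleton and migration, of which 32 reached 50 CPM. Of all genes tested 0.762% were called higher, and the list's median log2 ratio was 0.20. Lbp, which binds bacterial lipopolysaccharide, was at 110 CPM in injured cilium-keeping cells, 125 CPM in the other injured cells and 45.0 CPM in uninjured ones. Neat1, Crip1, Pros1, Celsr2, Mrps6, Pvalb, Gm10073 and Gm10076 were also among the 26. Gm10073 and Gm10076 were at 116 and 900 CPM in injured cilium-keeping cells, 235 and 1585 CPM in the other injured cells and 19.6 and 261 CPM in uninjured ones.

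The genes lower in injured cilium-keeping cells were 3. Lars2, the mitochondrial leucine tRNA ligase, was at 225 CPM (213 to 237) in injured cilium-keeping cells, 133 CPM in the other injured cells and 519 CPM (503 to 535) in uninjured ones. Gstp1, a glutathione transferase with a near-identical neighbour, was at 24.8 CPM in injured cilium-keeping cells, 26.7 CPM in the other injured cells and 63.1 CPM in uninjured ones. Hotairm1, a long noncoding RNA of the HoxA cluster, was at 53.4 CPM, 35.9 CPM and 109 CPM in the same groups. All 3 were on the same side of the uninjured level in both injured groups. The mitochondrial share given above was also lower in injured cilium-keeping cells, and its part in these differences was not tested. Among cells with under 10% mitochondrially encoded UMIs the log2 ratio of Hotairm1 was −0.91, short of 2-fold.

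**Figure D3:**
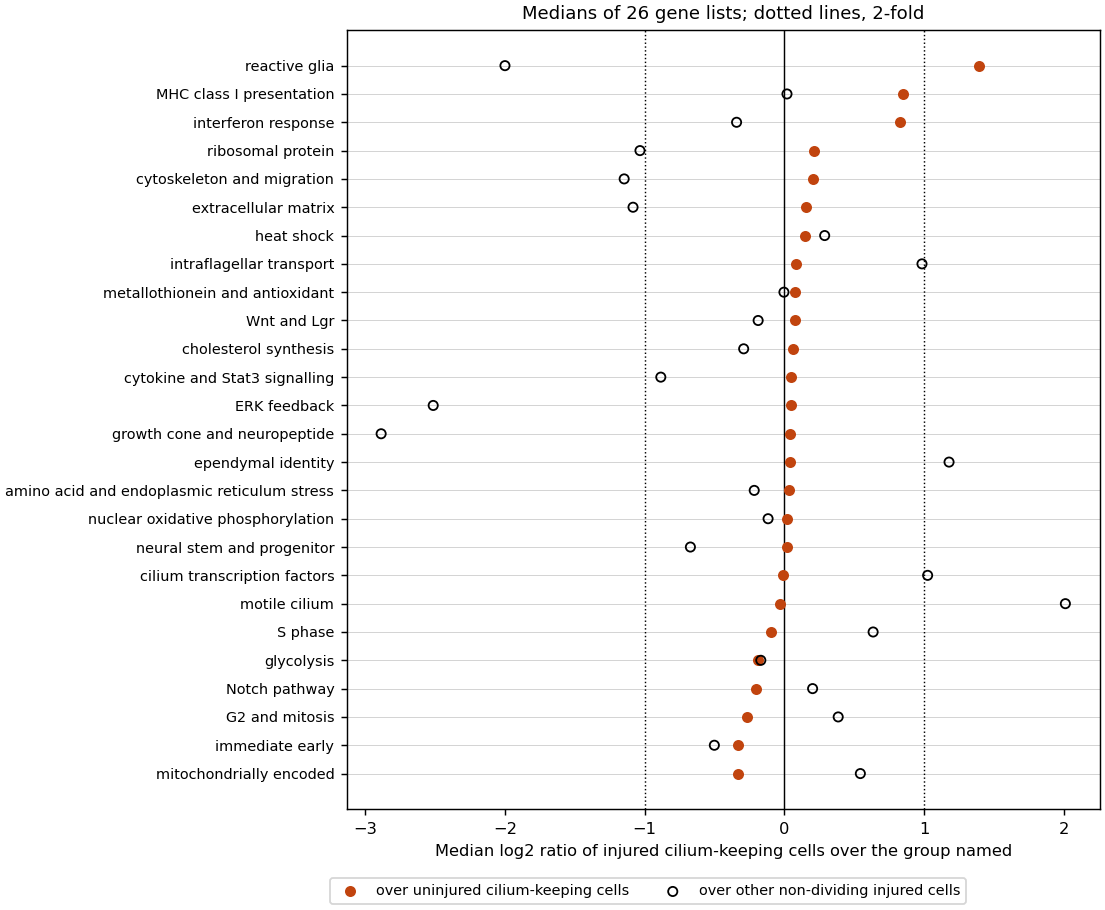
Median log2 ratio of the measured members of 26 gene lists (1 row each) in injured cilium-keeping cells over uninjured cilium-keeping cells (filled points) and over the other injured cells (open points). Reactive glia, class I presentation and interferon response stand highest of the filled points (1.39, 0.85 and 0.83), and motile cilium highest of the open points (2.01).

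Some genes with high levels in the other injured cells were scarce in injured cilium-keeping cells. Crym, the gene of mu-crystallin, which binds thyroid hormone, was at 24.8 CPM (21.0 to 29.2) in injured cilium-keeping cells, 1227 CPM in the other injured cells and 0.133 CPM in uninjured ones. A single cell held 19.6% of the Crym UMIs of injured cilium-keeping cells. The level was below that of microglia-like cells (76.6 CPM, 58.6 to 98.4) and endothelial-like cells (41.8 CPM, 36.0 to 48.3) of the injured library and above that of its fibroblast-like cells (13.6 CPM, 7.75 to 22.0). In the lowest tercile of cilium level among the injured cilium-keeping cells Crym was at 47.9 CPM (38.9 to 58.5). The part of free RNA in these UMIs was not tested. Spp1, the matrix protein osteopontin, was at 10.2 CPM in injured cilium-keeping cells and 627 CPM in the other injured cells, and Timp1, a metalloproteinase inhibitor, at 8.56 and 208 CPM. Endothelial-like cells stood at 32.2 CPM for Spp1 and 160 CPM for Timp1, and microglia-like cells at 20.1 CPM for Timp1, so no expression is read from the lower levels in cilium-keeping cells. Nes and Lgals1, the progenitor filament nestin and galectin-1, were at 15.4 and 25.5 CPM in injured cilium-keeping cells, against 215 and 1099 CPM in the other injured cells and 6.50 and 9.69 CPM in uninjured cilium-keeping cells. Fibroblast-like cells of the injured library held 2236 CPM of Spp1, 2233 CPM of Timp1 and 4498 CPM of Lgals1, and microglia-like cells 21877 CPM of Spp1. Spp1, Timp1 and Lgals1 were thus not particular to the other injured cells. Whether Crym was particular to them was not tested, since injured EpA cells with dividing-cell genes were not compared for it.

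Other cell types of the injured library held the leading genes at unlike levels. Beside the 247 CPM of Gfap in injured cilium-keeping cells, 31 microglia-like cells from that library had 12.6 CPM (6.02 to 23.1) and 93 endothelial-like cells had 35.2 CPM (29.9 to 41.2), with 20.4 CPM in 27 fibroblast-like cells. Serping1 was at 5.02 CPM in microglia-like and 19.5 CPM in endothelial-like cells, and C4b at 11.3 and 7.49 CPM. Fibroblast-like cells held 243 CPM of Serping1 and 43.2 CPM of C4b in the injured library, and 1112 and 184 CPM in the uninjured one, where there were 11 such cells. For Tmem176a, B2m and H2-D1 microglia-like cells held 118, 1631 and 929 CPM, above the cilium-keeping cells, so those types give no background for them. Markers of these types were sparse in the cilium-keeping cells. The 12 microglia or macrophage markers summed to 8.56 CPM in injured cilium-keeping cells (range over cells 0 to 265) and 6.37 CPM in uninjured ones (0 to 144), and Csf1r and Cx3cr1 were at 0 in the injured ones. The 10 endothelial markers summed to 16.8 CPM in injured and 18.1 CPM in uninjured cilium-keeping cells. The 8 fibroblast markers summed to 39.8 and 31.5 CPM, most of it Col1a2, with Lum and Pdgfra at 0 in injured cilium-keeping cells. The 8 astrocyte markers, several of which ependymal cells express, summed to 569 CPM in injured and 593 CPM in uninjured cilium-keeping cells. The 8 neuron markers summed to 958 and 809 CPM, most of it the noncoding RNA Meg3, and the 6 listed oligodendrocyte markers to 177 and 151 CPM, most of it Cnp.

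The difference was spread over many cells and was uneven among them. With every cell thinned to 2000 UMIs, Gfap was seen in 24.3% of injured cilium-keeping cells, 58.5% of the other injured cells and 1.501% of uninjured cilium-keeping cells. The share in endothelial-like cells of the injured library, thinned alike, was 2.17%. Serping1 was seen in 17.0%, 31.5% and 0% of the same groups of EpA cells, and in 2.17% of endothelial-like cells. The 0 of 533 uninjured cells allows a share of up to 0.563% with a UMI at that depth. At full depth Serping1 was seen in 202 of 412 injured cilium-keeping cells (49.0%) and 15 of 533 uninjured ones (2.81%). Without thinning, at least 1 of Serping1, C4b, Gfap and Tmem176a was seen in 320 of 412 injured cilium-keeping cells (77.7%), 393 of 400 other injured cells and 90 of 533 uninjured cilium-keeping cells (16.9%). All 4 were seen in 65 injured cilium-keeping cells (15.8%), 223 of the other injured cells and no uninjured one. These 4 genes were picked for their ratios, and 92 injured cilium-keeping cells (22.3%) held none of them. Without its richest cell the injured group still gave a Gfap ratio of 27.4 and a Serping1 ratio of 52.7.

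**Figure D4:**
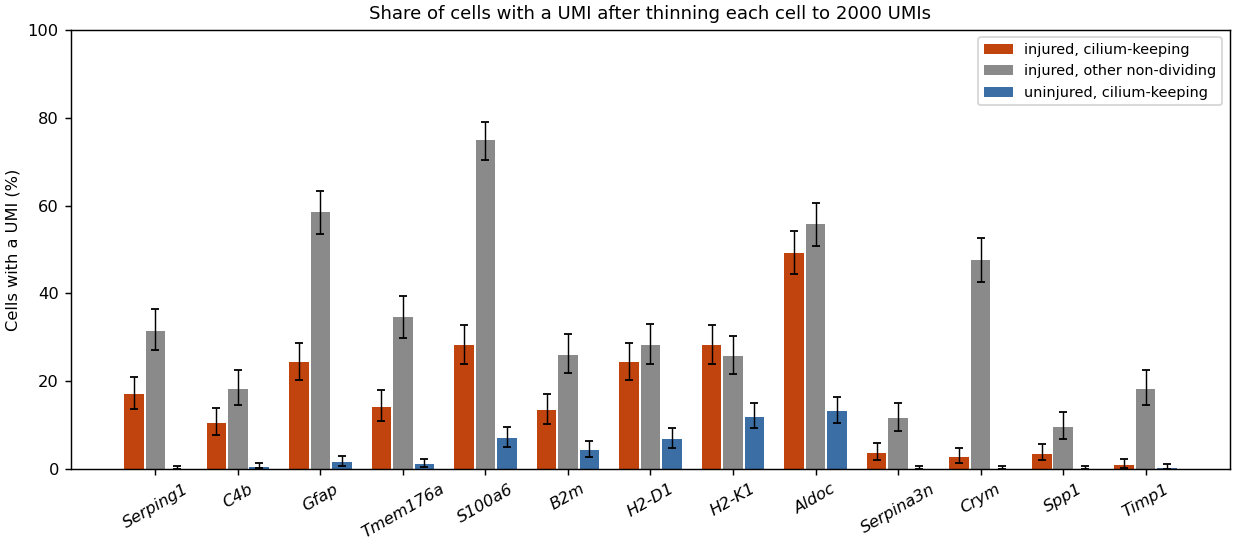
Percent of cells with a UMI of 13 genes after each cell was thinned to 2000 UMIs, in injured cilium-keeping cells (orange), the other injured cells (grey) and uninjured cilium-keeping cells (blue), with exact binomial 95% bars. Gfap stands at 24.3%, 58.5% and 1.501%, whereas H2-K1 is as frequent in injured cilium-keeping cells (28.2%) as in the other injured cells (25.8%).

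Taken as a list, the median share of reactive glia genes was 0.45% of thinned UMIs in injured cilium-keeping cells, 2.63% in the other injured cells and 0.30% in uninjured cilium-keeping cells. Vim held most of the list's UMIs in injured cilium-keeping cells. Above the 95th percentile of the uninjured cells (0.65%) lay 129 of 412 injured cilium-keeping cells (31.3%) and 378 of 400 other injured cells. For the interferon list, most of it Ifitm3, 116 of 412 (28.2%) lay above its own such percentile, and 143 of the other injured cells (35.8%). For class I presentation these were 53 (12.9%) and 71 (17.8%). For the motile cilium list 16 of 412 (3.88%) lay above its percentile.

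Within the injured cilium-keeping cells, the reactive genes were higher where cilium transcripts were fewer. The 412 cells were cut into terciles of the summed 4 cilium genes, at 3826 and 5120 CPM. Gfap was at 428 CPM in the lowest tercile, 193 CPM in the middle and 111 CPM in the highest. Serping1 was at 177, 77.7 and 69.9 CPM and C4b at 91.9, 54.9 and 46.4 CPM in the same order. Cells holding 3 or 4 of Serping1, C4b, Gfap and Tmem176a were 68 of 137, 46 of 137 and 28 of 138. The highest tercile was nevertheless far from the intact cord, where Gfap was between 7.73 and 9.21 CPM in cells of the same ranges. Depth was alike across the terciles, with medians of 11875, 11632 and 10995.5 UMIs.

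Genes fell into different shapes when all 6 ranges of cilium level in the injured library were set side by side. Crym and Spp1 were highest where cilium transcripts were nearly gone. Crym stood at 1791 CPM under 250 CPM of cilium genes, 650.5 CPM from 250 to 1000, 185 CPM from 1000 to 2500, and 47.9, 15.5 and 10.1 CPM in the terciles above. Gfap was instead broad, at 940, 1180 and 1145 CPM below the threshold. Serping1 was highest in the intermediate ranges, at 129, 266 and 244 CPM below the threshold, and C4b likewise at 72.9, 97.0 and 128 CPM. H2-D1 had no trend in CPM, at 185, 153 and 216 CPM below the threshold and 188, 217 and 155 CPM above it. Rarres2 ran the other way, from 29.5 CPM in the lowest range to 1813 CPM in the highest. Foxj1 was at 103, 244 and 489 CPM below the threshold and 514, 525 and 567 CPM above it. The ranges were cut on cilium genes, and these levels are a description of 1 library. Depth was not alike across the 6 ranges. Its medians were 25530.5, 21642 and 13586.5 UMIs below the threshold, against 11875, 11632 and 10995.5 UMIs in the terciles. The part of depth in these shapes was not tested.

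**Figure D5:**
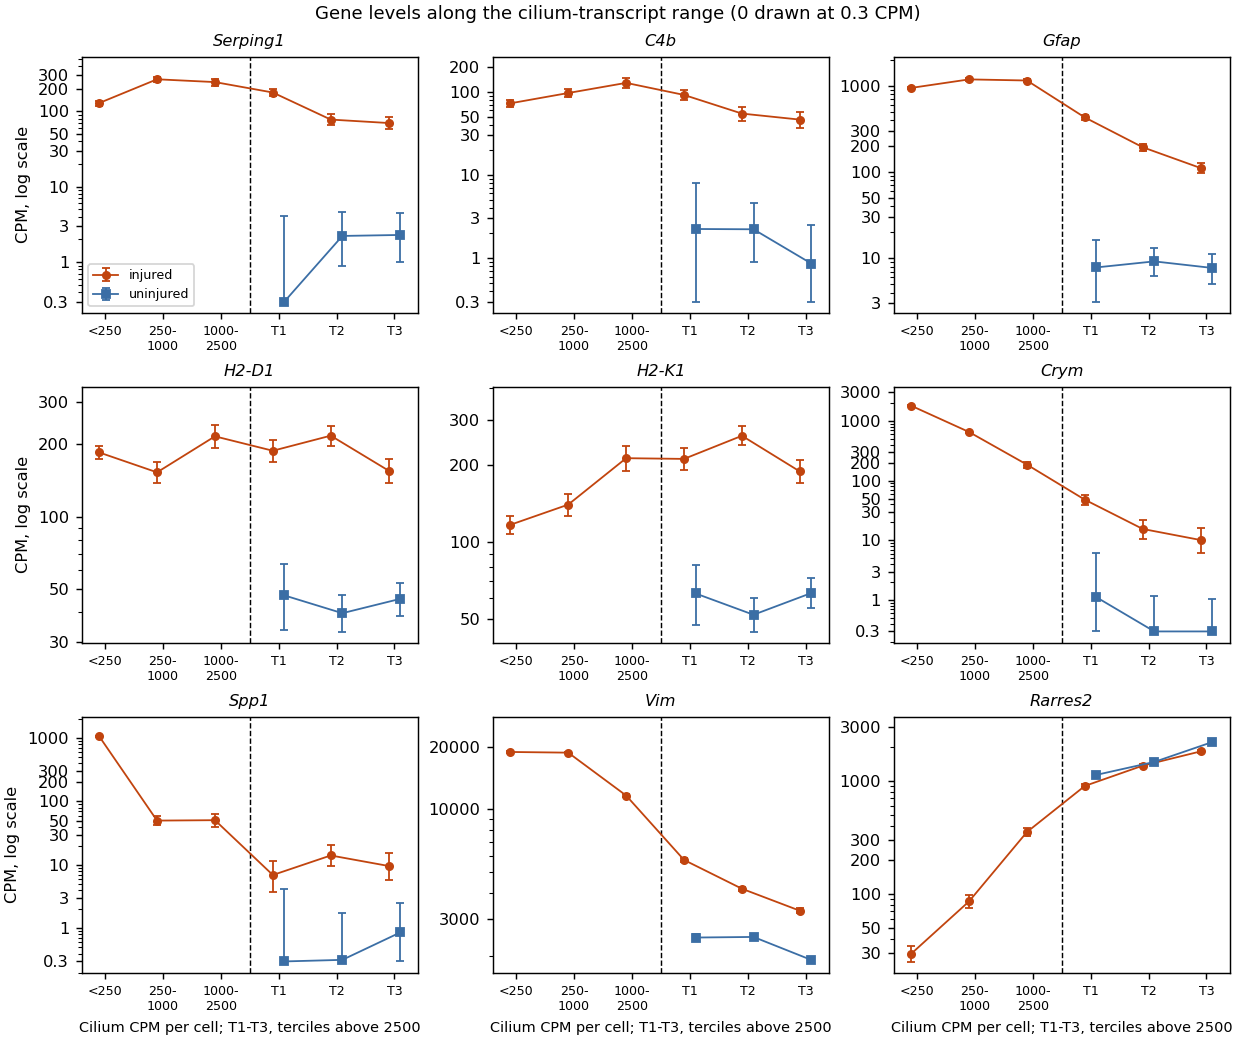
Levels of 9 genes (vertical axes, CPM, log scale, exact Poisson 95% bars, 0 drawn at 0.3) along ranges of the summed cilium genes per cell, low to high, in injured (orange circles) and uninjured (blue squares, 20 cells or more) EpA cells. The dashed line marks the threshold of 2500 and T1 to T3 are the terciles above it. Crym drops from 1791 to 10.1 CPM across the injured ranges while H2-D1 stays between 153 and 217 CPM.

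Set against the other injured cells of their own library, injured cilium-keeping cells differed widely. Of 3641 genes, 566 (15.5%) were 2-fold higher and 277 (7.61%) 2-fold lower in injured cilium-keeping cells, and 58.8% lay within 1.5-fold. Of the higher genes 75 belong to the motile cilium list, and of the lower ones 42 encode ribosomal proteins. The cells were chosen by cilium genes, so the cilium part of this contrast is a description. Sntn, which encodes a protein of the ciliary tip, was at 73.9 CPM in injured cilium-keeping cells and 1.64 CPM in the other injured cells. Outside the cilium list, Clec3b (tetranectin) was at 130 CPM in injured cilium-keeping cells and 6.97 CPM in the other injured cells. Cdhr3, a cadherin of ciliated cells, was at 153 and 10.4 CPM, and Htr5b, a serotonin receptor, at 51.7 and 3.08 CPM. All 3 of these genes were within 2-fold of their uninjured level. On the lower side, Olfml3 was at 2.35 CPM in injured cilium-keeping cells and 208 CPM in the other injured cells, and Chl1, an adhesion molecule, at 12.3 and 204 CPM. Of 25 reactive glia genes measured in this contrast, 20 reached 50 CPM in either group. Of those, 18 were 2-fold lower and none higher. Of 50 measured cytoskeleton genes, 42 reached 50 CPM, with 23 lower and 1 higher. The median log2 ratio of that list was −1.15.

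Depth and RNA content moved with this contrast. Per cell, the other injured cells held a mean of 24378 UMIs and injured cilium-keeping cells 14460. As UMIs per cell without scaling, the median log2 ratio over all genes shifted by −0.75, to 263 genes higher and 1130 lower, so the higher genes made up 18.9% of those called in place of 67.1%. The shift was 0.03 against uninjured cilium-keeping cells. Ribosomal protein genes summed to 78335 CPM in injured cilium-keeping cells, 156782 CPM in the other injured cells and 67843 CPM in uninjured ones. None of the 63 was 2-fold higher or lower than in uninjured cilium-keeping cells, with a median log2 ratio of 0.21. Of all genes tested against those cells, 0.762% were higher and 0.0879% lower.

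Almost no gene was particular in size to injured cilium-keeping cells against both other groups. Of 3241 genes at 50 CPM or more in them, 1 (0.0309%) was 2-fold above both, and of 2475 at 50 CPM in both others none (0%) was 2-fold below both. The gene was Pvalb, the calcium buffer parvalbumin, at 184 CPM (173 to 195) in injured cilium-keeping cells, 21.5 CPM in the other injured cells and 76.1 CPM (70.0 to 82.6) in uninjured ones. Pvalb was uneven, at 117, 114 and 334 CPM in the terciles from low to high cilium level. In uninjured cells of the same ranges it was at 22.4, 34.3 and 127 CPM. Under 10% mitochondrially encoded UMIs its log2 ratio to uninjured cilium-keeping cells was 0.63, short of 2-fold. The 10 genes ranked by this measure also held Sod3, H2-K1, Mpp1, Sntn and Timp4. Sod3, an extracellular superoxide dismutase, was at 124 CPM in injured cilium-keeping cells, 74.0 CPM in the other injured cells and 72.7 CPM in uninjured ones.

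The reporter and the driver were present as well. Transcripts of tdTomato were at 1128 CPM (1101 to 1155) in injured cilium-keeping cells, 2113 CPM in the other injured cells and 645 CPM (627 to 663) in uninjured ones. Tnfrsf19 was at 19.97 CPM in injured cilium-keeping cells, 8.72 CPM in the other injured cells and 16.7 CPM in uninjured ones. The stem cell factors Sox2 and Sox9 were at 1016 and 479 CPM in injured cilium-keeping cells and 962 and 515 CPM in uninjured ones.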

How the data were processed

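Cells were dissociated with papain, sorted for tdTomato and made into 10x Genomics 3′ libraries, per the labels' protocols. Cell Ranger 3.0.1, Seurat and build mm10 are named in the submitters' processing notes, and the gene annotation is not stated there. The authors deposited raw UMI counts for each gene in each cell, whole numbers whose totals differ between cells. The authors chose the EpA cells.

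UMIs were summed over the cells of a group and scaled to CPM. Log2 ratios add 0.5 counts. Intervals are exact Poisson for levels, exact conditional binomial for ratios and Clopper-Pearson for shares, and cover counting error only. Genes were called by size, at 50 CPM in either group and 2-fold. Members of a list were measured if the 2 groups averaged 5 CPM or more. Cells outside the EpA set were named from marker lists with 20 or more marker UMIs. No doublet caller was run. The calculation was tested on simulated data. Python 3.11.15, numpy 2.4.6, scipy 1.17.1 and edgeR 4.0.16 (TMM factors only) were used.

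The cells, gene lists, markers and rules were chosen with earlier results of these data known. The genes named were those with the 12 largest and 12 smallest ratios against uninjured cilium-keeping cells that met the call rule, the 8 largest and 8 smallest against the other injured cells, up to 4 members of each of 26 lists, 10 genes above and 10 below both groups, and fixed genes. Complement genes and some promoter motifs were added after levels had been seen. The results were recomputed under 15 alternatives, which the closing section names. A gene that met the call rule is not reported here.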

Additional observations from a re-analysis of the deposited data

Results flagged for a closer look

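Barcodes that the authors had left out of the EpA set were not used above, and some of them pass the same thresholds. They were 46 of 562 injured barcodes, 4 of them in the authors' wider set of kept cells, and 51 of 321 uninjured ones, 1 of them in that set. Their median depth was 3527.5 UMIs (injured) and 4915 UMIs (uninjured), and the median mitochondrially encoded share was 0.0373% (injured) and 21.4% (uninjured), a difference whose part in the values below was not tested. In the injured barcodes Gfap was at 373 CPM (294 to 467), against 11.7 CPM (3.18 to 29.9) in the uninjured ones. Serping1 was at 68.7 CPM (37.5 to 115) in the injured barcodes and at 0 of the UMIs of the uninjured ones (up to 10.8). These values are flagged because they lie in data outside the comparison and above the uninjured level. Vim was at 4424 CPM and Ccdc153 at 1501 CPM in the 46 injured barcodes, against 1855 and 1893 CPM in the 51 uninjured ones.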

How the results depend on the processing

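No paired analysis was possible because each condition had 1 library. None of the 29 genes called against uninjured cilium-keeping cells changed direction. The share of EpA cells that kept cilium transcripts was 47.1% injured and 98.0% uninjured at a threshold of 1500 per 1000000, 14.4% and 52.1% at 5000, and 34.5% and 93.3% among cells under 10% mitochondrially encoded UMIs. Against uninjured cilium-keeping cells, the genes called higher were 52 with a floor of 20 CPM, 1554 with no floor and 71 at 1.5-fold. Those called lower were 9, 1060 and 44 under the same settings, 5 at a threshold of 1500 or when Cfap126, Fam183b, Pifo and Tekt1 chose the cells, 6 at 5000, 7 under 10% mitochondrially encoded UMIs and 20 from thinned cells. Against the other injured cells, 263 were higher and 1130 lower without scaling, 899 and 539 with 20 CPM, 2789 and 2389 with no floor, and 911 and 589 at 1.5-fold. For the other injured cells against uninjured cilium-keeping cells, a comparison whose alternatives were chosen after seeing the data, these were 1374 and 284, 731 and 1038, 3435 and 3136, and 771 and 964, with 387 lower at a threshold of 5000. A minimum of 5000 UMIs, the rule applied to thinned cells, removal of cells with markers of other types, every cell weighted alike, TMM factors, and totals without mitochondrial and ribosomal genes kept each count within 1.5 times, and those of them that choose cells kept both shares close. A lower floor or fold admits more genes by construction, and the cause of the other moves was not tested. Of the 29 genes called against uninjured cilium-keeping cells, Vim passed 2-fold in 7 of 12 settings, and Serping1, C4b, Gfap, H2-D1, B2m and Aldoc in 12 of 12. Their size moved more: the log2 ratio ran from 4.84 to 7.95 for Serping1 (the highest with cells thinned, where uninjured cells had 0 UMIs, so it is no bound), 4.62 to 6.90 for C4b, 3.73 to 5.55 for Gfap, 4.03 to 5.62 for Tmem176a, 2.42 to 3.56 for Tagln, 0.63 to 1.84 for Neat1, 0.63 to 1.48 for Pvalb and −2.37 to −1.17 for Gstp1. Across settings, 19 list medians moved and 305 stayed close against uninjured cilium-keeping cells, and 68 moved and 256 stayed close against the other injured cells. For log2 ratios of single genes these were 287 and 1969, and 266 and 454. Against the other injured cells some list medians changed sign. Without scaling, S phase turned to −0.12 (main 0.64), G2 and mitosis to −0.37 (0.39), heat shock to −0.46 (0.29), Notch to −0.55 (0.20) and mitochondrially encoded genes to −0.21 (0.54). Notch was also below 0 at a threshold of 1500, under 10% mitochondrially encoded UMIs and from thinned cells, and complement (−0.17) was 0.17, 0.05 and 0.25 at 1500, with the rule on thinned cells and with cells chosen by the other 4 genes. Depth limits genes under about 5 CPM, and 1 library per condition leaves the spread between animals unmeasured.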
